A study of Mus musculus with 6 samples.

Results

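The Cyp4a genes of the mouse encode cytochrome P450 enzymes that add a hydroxyl group to the terminal, or ω, carbon of fatty acids. The members were the 6 genes of the deposited table that carry the symbols Cyp4a10, Cyp4a12a, Cyp4a12b, Cyp4a14, Cyp4a31 and Cyp4a32, of 21367 genes in all. They were chosen by their counts and levels in this very comparison, in which they were lower in the mutant kidneys, so that difference is a description, and the calls of genome-wide tests for them, given once below, are no evidence of it. The groups were 3 Ptpn6+/mev mice and 3 wild-type littermates, with 1 kidney library per mouse. Ptpn6+/mev mice are C57BL/6 mice that carry 1 viable motheaten allele and 1 wild-type allele of Ptpn6, the gene for the tyrosine phosphatase SHP-1. The allele is in the germline, so every cell type of the kidney carries it, and a normal copy remains. All 6 mice were 7 weeks old, lost the right kidney, had the left renal pedicle clamped for 34 min, and were killed at 24 h of reperfusion. Kidneys without ischemia were not analysed here, so every level below is a level in an injured kidney. In the paper, serum creatinine and urea nitrogen were higher in Ptpn6+/mev than in wild-type mice after this injury, and tubular damage was worse. The groups thus differed in injury as well as in genotype, and the part of injury in the differences below was not tested.

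In the kidney, Cyp4a enzymes are found mainly in the proximal tubule, on the endoplasmic reticulum, where they receive electrons from the P450 reductase. Some of them convert arachidonic acid into 20-HETE, a lipid that constricts renal vessels and alters sodium transport. The enzymes of the family also start the breakdown of medium- and long-chain fatty acids to dicarboxylic acids, which peroxisomes then shorten. In mice Cyp4a10 and Cyp4a14 are classical targets of the nuclear receptor PPARα, whereas Cyp4a12a is androgen-dependent, higher in males, and the main mouse enzyme for 20-HETE.

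The members lie in a single cluster of 322.6 kb on chromosome 4 of GRCm38, as annotated in GENCODE M21. In order along the chromosome these are Cyp4a12a (chr4:115299046-115332815, plus strand), Cyp4a12b (chr4:115411624-115439034, plus strand), Cyp4a14 (chr4:115486200-115496142, minus strand), Cyp4a10 (chr4:115518264-115533649, plus strand), Cyp4a31 (chr4:115563649-115579015, plus strand) and Cyp4a32 (chr4:115600969-115621602, plus strand). The coding sequences are 1524 to 1530 bases long. By identity they fell into a Cyp4a10 type (Cyp4a10, Cyp4a31 and Cyp4a32, 96.0 to 97.2% identical to each other), a Cyp4a12 pair (98.5% identical, with 23 differing columns in the alignment) and Cyp4a14 alone (75.0 to 76.0% identical to any other member).

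The coding bases around the cysteine that holds the haem iron show the same 3 types. They are given 5′ to 3′ from the GENCODE M21 transcripts as an example of how far a read can tell the members apart, and capitals mark bases that differ from Cyp4a10.
Cyp4a10, codons 444 to 463: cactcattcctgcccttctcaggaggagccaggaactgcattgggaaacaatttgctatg
Cyp4a12a, codons 443 to 462: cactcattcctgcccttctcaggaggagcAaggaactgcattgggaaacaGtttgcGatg
Cyp4a14, codons 442 to 461: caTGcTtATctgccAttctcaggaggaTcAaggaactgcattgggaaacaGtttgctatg
Over these 60 bases Cyp4a31 and Cyp4a32 had 0 differences from Cyp4a10, and Cyp4a12b had the same sequence as Cyp4a12a. Cyp4a12a differed from Cyp4a10 at 3 bases and Cyp4a14 at 9.

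Likeness limits how much of each gene a read can assign. Of all 150-base stretches of its annotated transcripts (150 bases being the study's read length), 25.6% of those of Cyp4a12a and 25.9% of those of Cyp4a12b were also present in the other of the pair. The share was 4.04% for Cyp4a10, 3.54% for Cyp4a31, 6.96% for Cyp4a32 and 0 for Cyp4a14. The deposited counts carried the same partition. Cyp4a14 had whole-number counts in every library, the other 5 members had fractional counts, and the fractions cancelled when Cyp4a12a was added to Cyp4a12b (971 counts in Ptpn6+/mev replicate 1, from 229.21 and 741.79) and when Cyp4a10, Cyp4a31 and Cyp4a32 were added together (2355 counts in the same mouse). Sums within these sets are therefore given beside the single genes, and the sets were formed after the counts had been seen.

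**Figure D1:**
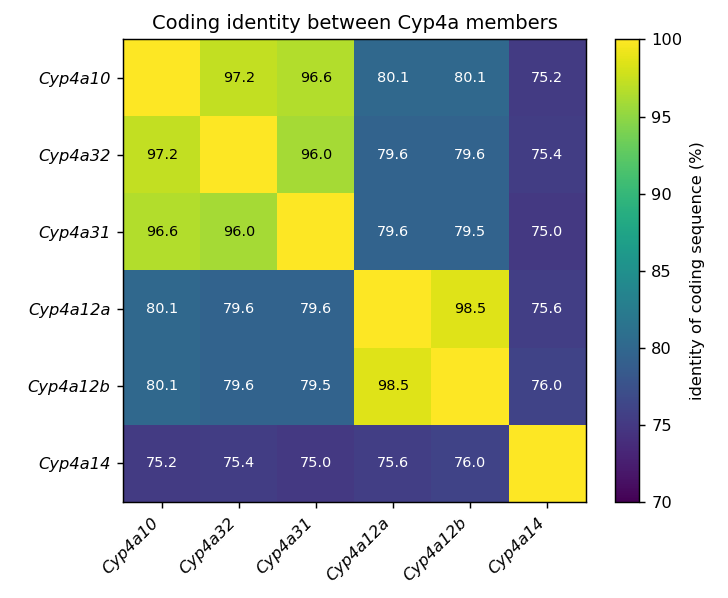
Percent identity of the coding sequences of each pair of Cyp4a members (color scale from 70 to 100%, values in the cells). The Cyp4a10, Cyp4a31 and Cyp4a32 block and the Cyp4a12a and Cyp4a12b block stand at 96.0% or more, and Cyp4a14 is at most 76.0% identical to any other member.

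The study's own RT-PCR primers for 3 members, written 5′ to 3′, were compared with the same transcripts, since they show where a short oligonucleotide separates these genes.
Cyp4a10 forward primer: agcacaggaggatgctaacc
its place in Cyp4a32: agcacCggaggatgctaacc
its place in Cyp4a31: agcacCggaAgatgctaacc
Cyp4a14 forward primer: ggtttgctcctgttgaatgg
its place in Cyp4a10 and Cyp4a32: ggtttgctcTtgttgaatgg
Cyp4a31 reverse primer: cagccgttcccatttgtc
Capitals mark the bases at which a gene differs from the primer. The forward primer of Cyp4a10 had 1 mismatch to Cyp4a32 and 2 to Cyp4a31, that of Cyp4a14 had 1 mismatch to Cyp4a10 and Cyp4a32, and the reverse primer of Cyp4a31 matched Cyp4a10 with 0 mismatches. As pairs with no mismatch allowed, each set matched its own gene and no other, with products of 190 bases for Cyp4a10, 168 for Cyp4a14 and 153 for Cyp4a31. The Cyp4a31 product lies in 1 of the 4 annotated Cyp4a31 transcripts.

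The 6 libraries held 10271590 to 12361745 counts. Ptpn6, the gene that carries the mutation, was at 11.85, 14.66 and 13.61 FPKM (fragments divided by transcript length and by library size) in Ptpn6+/mev replicates 1 to 3 and at 17.47, 10.87 and 15.44 FPKM in wild-type replicates 1 to 3, with a log2 fold change of -0.19 (SE 0.165, false discovery rate (FDR) 0.715 in edgeR's quasi-likelihood test), so its RNA level did not separate the genotypes. Wild-type replicate 2 stood apart from the other 5 libraries. Its summed FPKM of 6 endothelial markers was 79.23 against 157.9 to 179.6 elsewhere, and Kap, an androgen-responsive proximal tubule transcript, reached 10201 FPKM there against 1520 to 2882. Member values, list medians and list calls that change their call or direction without that mouse are given with and without it. Fold changes of single list genes are those of all 6 libraries unless stated.

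Across the family, RNA was 2.92-fold higher in wild-type kidneys. The summed level was 224.1, 217.2 and 217.1 FPKM in Ptpn6+/mev replicates 1 to 3, against 593.5, 1018 and 313.6 FPKM in wild-type replicates 1 to 3. The Ptpn6+/mev mice lay within 1.03-fold of each other while the wild-type mice spanned 3.25-fold, and the groups did not overlap. As a share of each library, the family took 39.1 to 42.3 of every 100000 counts in Ptpn6+/mev mice and 54.4 to 205 in wild-type mice. On summed counts in the model fitted to all genes the log2 fold change was -1.71 (SE 0.422), which became -1.10 without wild-type replicate 2 and -2.08 without wild-type replicate 3. The size of the family's difference thus rested on which wild-type mice were included. Its direction could not turn in these fits, since every Ptpn6+/mev sum lay below every wild-type sum. In bulk kidney RNA, fewer proximal tubule cells and less RNA per cell cannot be told apart.

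**Figure D2:**
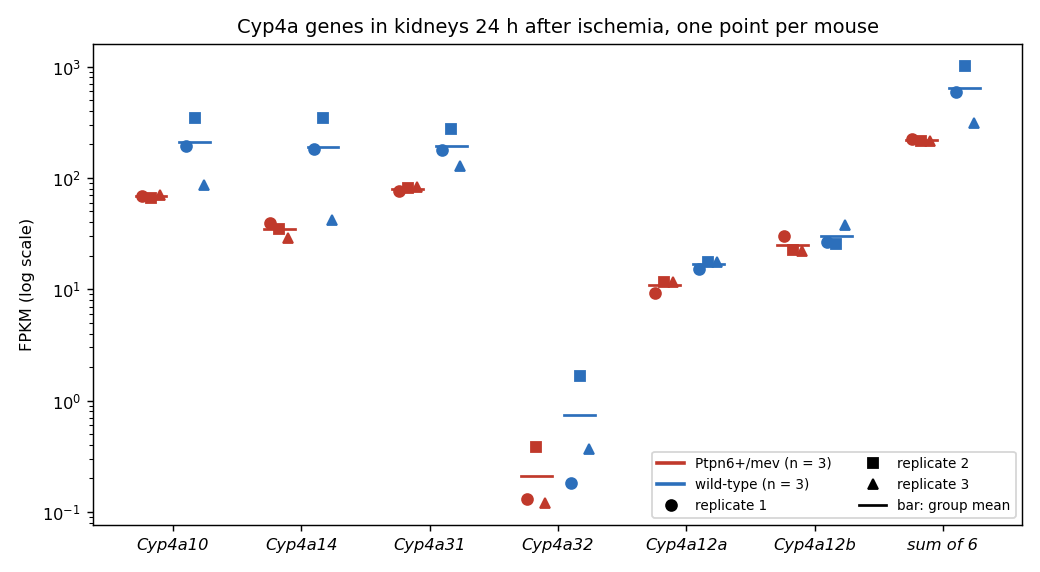
FPKM (log axis) of the 6 Cyp4a genes and of their sum, with a point for each mouse, red for Ptpn6+/mev and blue for wild-type, symbols for the replicate, and a bar at the group mean. Ptpn6+/mev points sit close together, wild-type replicate 2 is the highest for Cyp4a10, Cyp4a14, Cyp4a31 and Cyp4a32, and wild-type replicate 3 lies just above the Ptpn6+/mev mice for Cyp4a10 and Cyp4a14.

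Cyp4a14, the member with the lowest identity to the rest and a strong PPARα target, had the largest difference. It was at 39.53, 35.07 and 28.98 FPKM in Ptpn6+/mev mice and at 180.8, 349.0 and 41.55 FPKM in wild-type mice. Wild-type replicate 3 lay only 1.05-fold above the highest Ptpn6+/mev mouse, whereas wild-type replicate 2 was 10.1-fold above the Ptpn6+/mev mean. The means were 34.5 ± 5.30 FPKM and 190 ± 154 FPKM (SD, n = 3 each), a 5.52-fold difference with a log2 fold change of -2.57 (SE 0.651). Without wild-type replicate 2 the log2 fold change was -1.73, and without wild-type replicate 3 it was -3.05. All counts of this gene were whole numbers and no 150-base stretch of its transcripts occurs in another member, so its value does not depend on how shared reads were divided within the family.

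Cyp4a10, the ω-hydroxylase that PPARα agonists induce together with Cyp4a14, was at 69.41, 66.56 and 70.76 FPKM in Ptpn6+/mev mice. In wild-type mice it was at 193.2, 346.9 and 87.26 FPKM. The Ptpn6+/mev mice were almost level, within 1.06-fold of each other, and the wild-type mice differed 3.98-fold among themselves without overlapping them. The means of 68.9 ± 2.14 and 209 ± 131 FPKM (SD, n = 3 each) differed 3.03-fold, with a log2 fold change of -1.70 (SE 0.437) that was -1.07 without wild-type replicate 2 and -2.08 without wild-type replicate 3. By FPKM, Cyp4a10 ranked 1328th to 1435th among all genes in Ptpn6+/mev mice and 239th, 423rd and 1074th in wild-type replicates 2, 1 and 3.

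Cyp4a31, a close relative of Cyp4a10, was at 75.76, 81.05 and 83.58 FPKM in Ptpn6+/mev mice and at 177.7, 277.6 and 129.0 FPKM in wild-type mice. Of the members of the Cyp4a10 type it had the widest gap between the groups, 1.54-fold from the highest Ptpn6+/mev to the lowest wild-type mouse. Its log2 fold change was -1.37 (SE 0.348), -0.82 without wild-type replicate 2 and -1.66 without wild-type replicate 3. The level of Cyp4a31 in FPKM needs care. Its 4 annotated transcripts are 533 to 2509 bases long, and the transcript length implied by the ratio of its count to its FPKM (relative to the median gene) moved 1.25-fold between libraries, from 0.347 to 0.432, while that of the other members moved by 1.02- to 1.03-fold. Of 9125 genes, 9.69% moved by more than Cyp4a31. In FPKM it stood at 1.16 ± 0.0649 of Cyp4a10 in Ptpn6+/mev mice (SD, n = 3), whereas in counts it stood at 0.588 ± 0.0310. With its counts converted at the length implied for Cyp4a10, a conversion chosen after the values were seen, Cyp4a31 would be at 40.5 ± 1.43 FPKM in Ptpn6+/mev and 98.5 ± 51.9 FPKM in wild-type mice (SD, n = 3 each), below Cyp4a10 in each of the 6 libraries.

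Cyp4a32, whose coding sequence is 97.2% identical to that of Cyp4a10, was barely detected. It had 2.02, 6.05 and 2.01 counts in Ptpn6+/mev mice and 3.01, 28.12 and 7.03 counts in wild-type mice, or 0.12 to 0.38 and 0.18 to 1.67 FPKM. The groups overlapped, the highest value again being that of wild-type replicate 2. Counts this low left it out of the model by the filter on low counts, and with no filter its log2 fold change was -1.88 (SE 0.910). Its transcripts share 3.04% of their 150-base stretches with Cyp4a10 and 3.92% with Cyp4a31, and the part of shared reads in these few counts was not tested.

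Cyp4a12a and Cyp4a12b had smaller fold changes between the group means than the other members, which was not tested. Cyp4a12a was at 9.18, 11.62 and 11.67 FPKM in Ptpn6+/mev mice and at 15.06, 17.61 and 17.62 FPKM in wild-type mice. These groups did not overlap, and each spread was small (10.8 ± 1.42 and 16.8 ± 1.48 FPKM, SD, n = 3 each). The log2 fold change of -0.70 (SE 0.139) was -0.64 without wild-type replicate 2, so for this gene that mouse made little difference. Wild-type replicate 3 was 1.63-fold above the Ptpn6+/mev mean for Cyp4a12a, against 1.27-fold for Cyp4a10, 1.20-fold for Cyp4a14 and 1.61-fold for Cyp4a31, so in that mouse Cyp4a12a did not stand below the others. Cyp4a12b was at 30.05, 22.48 and 22.03 FPKM against 26.60, 25.67 and 37.80 FPKM. Its groups overlapped, with Ptpn6+/mev replicate 1 above wild-type replicates 1 and 2, and its log2 fold change was -0.34 (SE 0.172). The ratio of Cyp4a12b to Cyp4a12a was 3.27 in Ptpn6+/mev replicate 1 and 1.46 to 2.15 in the other 5 libraries. How shared reads were divided can enter this ratio, and its part was not tested. The sum of the pair does not depend on that division. It was 39.23, 34.10 and 33.70 FPKM in Ptpn6+/mev mice and 41.66, 43.28 and 55.42 FPKM in wild-type mice, without overlap, with a log2 fold change of -0.46 (SE 0.122).

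The order of the levels was clearest in Ptpn6+/mev mice. There Cyp4a31 (80.1 ± 3.99 FPKM) was followed by Cyp4a10 (68.9 ± 2.14 FPKM), Cyp4a14 (34.5 ± 5.30 FPKM), Cyp4a12b (24.9 ± 4.51 FPKM) and Cyp4a12a (10.8 ± 1.42 FPKM), each mean ± SD of 3 mice. Between mice the ranges of Cyp4a14 and Cyp4a12b overlapped, though within each Ptpn6+/mev mouse Cyp4a14 was the higher. The ranges of the other neighbours did not overlap. The order of Cyp4a31 and Cyp4a10 turned over when Cyp4a31 was given the length of Cyp4a10. In wild-type mice Cyp4a10 (209 ± 131 FPKM), Cyp4a31 (195 ± 75.7 FPKM) and Cyp4a14 (190 ± 154 FPKM) did not differ beyond their spread, and Cyp4a12b (30.0 ± 6.75 FPKM) and Cyp4a12a (16.8 ± 1.48 FPKM) lay below all 3. Wild-type replicate 3 had the same order as the Ptpn6+/mev means.

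The make-up of the family shifted with its total. Cyp4a10 held a steady part of the family's counts, 34.7, 35.3 and 38.3% in Ptpn6+/mev mice and 36, 35.9 and 33.9% in wild-type mice. Cyp4a14 held 23.4, 22.0 and 18.6% in Ptpn6+/mev mice and 39.9, 42.7 and 19.1% in wild-type mice. The Cyp4a12b share ran the other way, 17.1, 13.5 and 13.5% against 5.64, 3.01 and 16.7%. Wild-type replicate 3, with the lowest wild-type total, thus had a make-up like that of the Ptpn6+/mev mice, and the shares of Cyp4a14 in the 2 groups overlapped. Shares of 1 total move together by arithmetic, so they are a description of each library and not separate results.

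**Figure D3:**
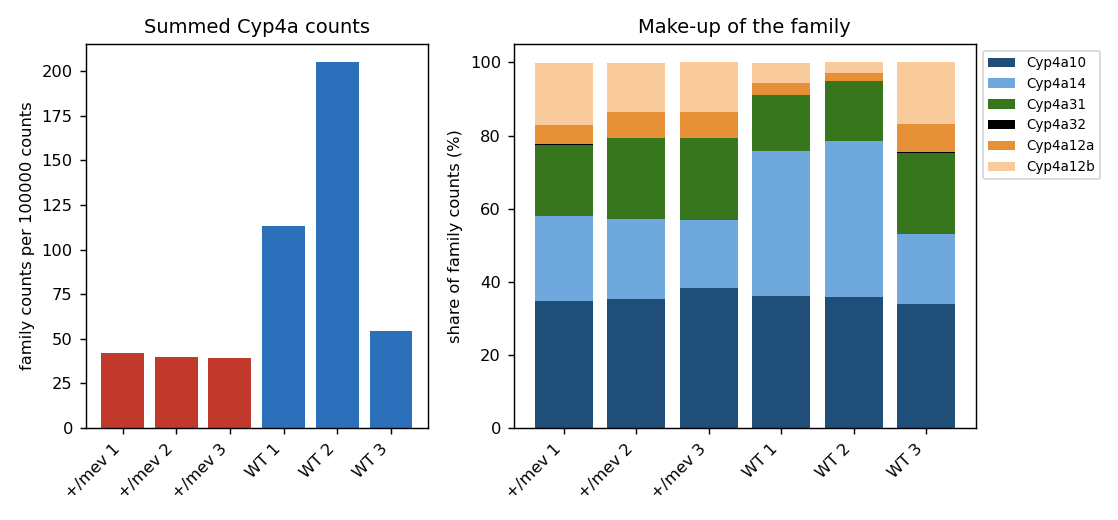
Left, counts of the 6 Cyp4a genes together per 100000 counts of the library, for each mouse. Right, the percent of those family counts held by each gene. Totals were 39.1 to 42.3 in Ptpn6+/mev mice and 54.4 to 205 in wild-type (WT) mice, and Cyp4a14 held 39.9 and 42.7% in wild-type replicates 1 and 2 against at most 23.4% in the other 4 libraries.

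In the model across all 13036 genes that passed the filter, 5 of the 6 members were tested. In edgeR's quasi-likelihood test 0 of them passed an FDR of 0.05, as did 0.138% of all genes (0.069% lower in Ptpn6+/mev mice), and 4 of them (all but Cyp4a12b) had an unadjusted p under 0.05, as did 12.2% of all genes (6.71% lower). The exact test of edgeR called 4 (Cyp4a10, Cyp4a14, Cyp4a31 and Cyp4a12a), where it called 2.99% of all genes, and DESeq2 called 2 (Cyp4a31 and Cyp4a12a), where it called 2.97%. When wild-type replicate 2 was left out of the quasi-likelihood test, Cyp4a31 and Cyp4a12a passed (1.8% of all genes), and when wild-type replicate 3 was left out, Cyp4a10 and Cyp4a14 passed (0.508% of all genes). The FPKM values of 4 members were lower in every Ptpn6+/mev mouse than in every wild-type mouse, as were those of 6.38% of all tested genes. These counts used the contrast that chose the members and carry no evidence of their own.

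**Figure D4:**
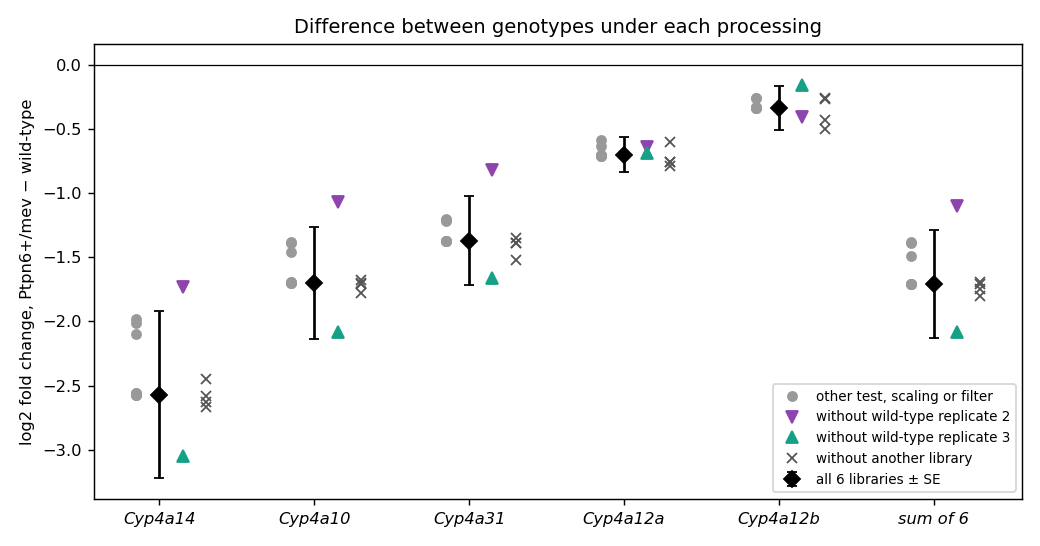
Log2 fold change (Ptpn6+/mev minus wild-type) of 5 Cyp4a genes and the family sum. Black diamonds with bars are the fit to all 6 libraries ± SE, grey dots other tests, scalings and filters, triangles the fits without wild-type replicate 2 or 3, and crosses the fits without another library. All values are below 0. The fits without wild-type replicate 2 or 3 set the range for Cyp4a14 (-3.05 to -1.73), Cyp4a10, Cyp4a31 and the family sum. For Cyp4a12b (-0.50 to -0.16) the ends were the fits without Ptpn6+/mev replicate 1 and without wild-type replicate 3. For Cyp4a12a they were -0.79, without wild-type replicate 1, and -0.59, with limma on log2(FPKM + 1).

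The genes whose profiles over the 6 libraries lay nearest to a member were found by the root mean square difference of log2 CPM, the counts scaled to library size, centred on each gene's mean, a smaller value being a closer match. Nearest to Cyp4a10 were Acaa1b, a peroxisomal thiolase (0.115), Notum, a secreted enzyme that removes the lipid from Wnt proteins (0.170), Vnn1, the pantetheinase vanin (0.185), Pck1, which makes phosphoenolpyruvate in gluconeogenesis (0.195), and Cd36, a fatty acid translocase (0.200). The median over all genes was 0.965, and Cyp4a31 was at 0.236. Acaa1b was at 117.1, 98.03 and 122.4 FPKM in Ptpn6+/mev mice and at 355.6, 516.4 and 139.0 FPKM in wild-type mice, the same order of mice as for Cyp4a10 within the wild-type group. Nearest to Cyp4a14 was Mbl1, a mannose-binding lectin at 0.24 to 0.43 and 0.67 to 3.54 FPKM (0.270), followed by Notum, Pck1, Cd36 and Acaa1b at 0.465 to 0.497, so 4 of its 5 nearest genes were also among those of Cyp4a10. Cyp4a12a had other neighbours, each within 0.105 of it against a median of 0.426. They were Plekhg6, A4galt, the Gb3 synthase, Tha1, a threonine aldolase, Cep85, a centrosomal protein, and Pyroxd2, at log2 fold changes of -0.63 to -0.70. Its sequence twin Cyp4a12b was at 0.356. All 6 libraries enter this distance, with the genotype difference that chose the members, so genes with a like fold change lie near by construction. The nearest genes lie below the median by selection, and the matches are a description.

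Enzymes that act before and after the Cyp4a step had mostly negative fold changes that did not pass the test. Of 5 genes for redox partners and haem turnover, 0 passed an FDR of 0.05 in the quasi-likelihood test, 3 were lower at an unadjusted p under 0.05 and 2, Por and Hmox1, were called lower by the exact test and by DESeq2 (1.78% and 1.88% of all genes). Without wild-type replicate 2 the same 2 passed the quasi-likelihood test (Por FDR 0.0294, Hmox1 FDR 0.0287). The median log2 fold change of the list was -0.34, against -0.00238 over all tested genes. Por, the reductase that feeds electrons to every microsomal P450 and was named after its values were seen, was at 117.0, 121.7 and 116.8 FPKM against 155.3, 133.8 and 160.1 FPKM, with a log2 fold change of -0.41 (SE 0.0746, FDR 0.0852). Its groups did not overlap, and its lowest wild-type value was in replicate 2, the mouse with the highest Cyp4a10. Cyb5a, cytochrome b5, had a log2 fold change of -0.30 (FDR 0.228), Hmox1, which degrades haem, -0.50 (FDR 0.0873), and Alas1, which starts haem synthesis, -0.34 (FDR 0.451).

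A list of 25 genes was set up for the route from ω-hydroxylated fatty acids through dicarboxylic acids and peroxisomal β-oxidation. The list is broad, and not every gene in it is particular to that route. Of its genes, 24 were tested. None passed the FDR, 12 were lower and 0 higher at an unadjusted p under 0.05, and the median log2 fold change was -0.36. The exact test called 6 of them lower and DESeq2 4, namely Aldh1a1, Acox2, Hsd17b4 and Acot8, which were among the 6. Acaa1b had a log2 fold change of -1.67 (FDR 0.164), whereas Adh1, an alcohol dehydrogenase that can take the hydroxyl onward, was at -0.07 (FDR 0.923). Ehhadh, the bifunctional enzyme of peroxisomal β-oxidation, was at 96.61, 68.06 and 82.46 FPKM against 174.6, 343.2 and 115.9 FPKM, again highest in wild-type replicate 2, and was named after its values were seen. Without that mouse the median of the list was -0.27, and Acox2, Ehhadh and Hsd17b4 passed.

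PPARα itself, encoded by Ppara and named after its values were seen, was at 15.73, 12.34 and 16.14 FPKM in Ptpn6+/mev mice and at 22.23, 28.94 and 21.79 FPKM in wild-type mice. The groups did not overlap, and the log2 fold change was -0.81 (SE 0.166, FDR 0.104). Without wild-type replicate 2 it was -0.66 and passed the quasi-likelihood test (FDR 0.0403), as the only gene of its list to do so. Of the 12 genes for PPARα, related receptors and cofactors 0 passed the FDR, 2 were lower at an unadjusted p under 0.05 and 1, Ppara, was called by the exact test and by DESeq2, and the median was -0.11, with the abundant Hnf4a, a hepatocyte and proximal tubule factor, at -0.36 (FDR 0.308), Ncor1, a corepressor, at -0.02 (FDR 0.967) and Nr1h3, the receptor LXRα, at -0.22 (FDR 0.623). Of 28 PPARα targets outside the Cyp4a family 25 were tested, 0 passed, 10 were lower and 0 higher at an unadjusted p under 0.05, the exact test called 5 (Cd36, Vnn1, Plin2 and Ehhadh among them) and DESeq2 4 (Cd36, Plin2 and Acadvl among them), and the median was -0.40. Plin2, a coat protein of lipid droplets, was at 491.6, 495.3 and 602.3 FPKM against 865.5, 1506 and 737.5 FPKM (log2 fold change -1.05, FDR 0.177). Slc27a2, a fatty acid transporter, had a log2 fold change of -0.40 (FDR 0.447), and Cpt1a, the gate of mitochondrial oxidation and a textbook target named after its values were seen, one of 0.01 (FDR 0.991). Wild-type replicate 2 held the highest of the 6 values in 24 of the 28 targets, a position it held in 17.3% of all tested genes. Without it the median of the targets was -0.15, and the 5 genes that the exact test called passed.

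**Figure D5:**
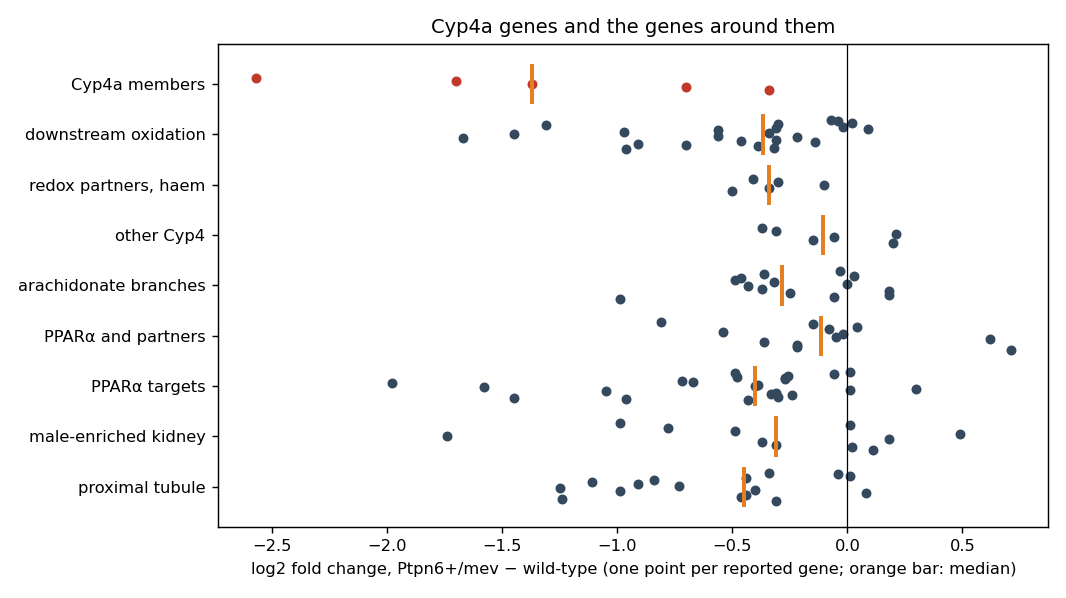
Log2 fold change (Ptpn6+/mev minus wild-type) of each tested gene in the Cyp4a family and in 8 lists of related genes that is reported here, with an orange bar at the median over all tested genes of the row. The Cyp4a row describes genes chosen on this contrast. List medians lay between -0.45 (proximal tubule) and -0.10 (other Cyp4 genes).

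Of 14 other Cyp4 genes, including Cyp4a30b within the span of the members and Cyp4a29 just before it, 6 were tested, 0 passed the FDR, 2 were lower at an unadjusted p under 0.05, 0 were called by the exact test or DESeq2, and the median log2 fold change was -0.10. Cyp4a29, Cyp4a30b, Cyp4f37 and Cyp4f40 had 0 counts in every library. Cyp4b1, which adjoins the cluster next to Cyp4a32, was the most abundant Cyp4 gene of the kidney, at 334.6, 324.5 and 356.9 FPKM in Ptpn6+/mev mice and 375.7, 451.9 and 420.0 FPKM in wild-type mice. Its groups did not overlap, and its log2 fold change was -0.37 (SE 0.106, FDR 0.209). Cyp4f13 and Cyp4f16 were at -0.31 (FDR 0.376) and 0.21 (FDR 0.626). Among 18 genes of the other arachidonic acid routes, with 14 tested, 0 passed, 2 were lower at an unadjusted p under 0.05, the exact test called 0 and DESeq2 1 (Ephx2), and the median was -0.29, or -0.14 without wild-type replicate 2. Cyp2j5, an epoxygenase, was at -0.37 (FDR 0.437), Ephx1, the microsomal epoxide hydrolase, at -0.06 (FDR 0.898), and Ephx2, the soluble epoxide hydrolase, at -0.99 (FDR 0.239) with 207.9 FPKM in wild-type replicate 2 against 61.81 to 103.1 FPKM elsewhere.

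Because Cyp4a12a is higher in male kidneys, male-enriched genes were set beside it. Of 11, Cyp2d9, a male-biased steroid hydroxylase, passed, at 4.82, 4.95 and 3.65 FPKM in Ptpn6+/mev mice against 12.48, 15.18 and 15 FPKM in wild-type mice (log2 fold change -1.74, SE 0.179, FDR 0.0200). The median of the list was -0.31, which turned to 0.09 without wild-type replicate 2. Kap was at -0.99 (FDR 0.604), which turned to 0.33 without wild-type replicate 2. Cyp2j5 was at -0.37 and Odc1, ornithine decarboxylase, at 0.49 (FDR 0.297). With all 6 libraries, 5 of the 11 genes had positive and 6 negative fold changes. The 4 Y-linked genes were read in every library, with a summed level of 11.89 to 14.88 FPKM in Ptpn6+/mev mice and 10.15 to 19.36 FPKM in wild-type mice, and 0 passed the test, also at an unadjusted p under 0.05, in the exact test and with DESeq2. Eif2s3y, Ddx3y and Kdm5d were at -0.03, -0.13 and -0.04. Without wild-type replicate 2 these turned to 0.61, 0.38 and 0.02, and the median of the list from -0.05 to 0.20.

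Markers of the cell type that expresses Cyp4a were partly lower as well. Of 16 proximal tubule markers, 1 passed the FDR, Slc22a8, the organic anion transporter OAT3, at 14.51, 11.92 and 13.23 FPKM against 21.26, 24.88 and 24.69 FPKM (log2 fold change -0.91, SE 0.118, FDR 0.0443). A further 8 were lower at an unadjusted p under 0.05, the exact test and DESeq2 each called 6 lower, and the median was -0.45, or -0.52 without wild-type replicate 2, when 6 passed (Lrp2, Cubn, Slc22a6, Slc22a8, Slc13a3 and Miox). Acsm2, an abundant mitochondrial acyl-CoA synthetase, was at 0.08 (FDR 0.837) and Slc5a2, the glucose transporter SGLT2 and a choice made after its values were seen, at -0.04 (FDR 0.936). The summed level of the list was 4653 to 5467 FPKM in Ptpn6+/mev mice and 4391, 5738 and 13430 FPKM in wild-type mice, most of the last being Kap. The part of proximal tubule content in the Cyp4a difference was not tested.

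Other compartments were measured in the same libraries. Of 12 tubular injury genes 0 passed, and 8 had positive and 4 negative fold changes. At an unadjusted p under 0.05, 5 were higher (Havcr1, Krt18, Krt8, Vcam1 and Cdkn1a) and 2 lower (Spp1 and Fgb). The exact test called Vcam1 higher and Fgb lower, and DESeq2 called these and Krt18, which was higher. The summed level was 27110 to 33150 FPKM in Ptpn6+/mev mice and 30400 to 39140 FPKM in wild-type mice. Most of that sum was Spp1, at 20881 to 25507 FPKM against 24406 to 32920 FPKM, so the sum mainly follows 1 gene. The most abundant were Spp1 at -0.38 (FDR 0.331), Clu at 0.08 (FDR 0.879) and Lcn2 at -0.08 (FDR 0.961). Distal nephron markers (7 genes, 0 passed, 2014 to 2925 FPKM against 2470 to 2864 FPKM) were led by Umod at -0.13, Aqp2 at -0.54 and Slc12a3 at -0.43. Endothelial markers (6 genes, 0 passed, 157.9 to 173.9 FPKM against 79.23 to 179.6 FPKM, with each of the 6 lowest in wild-type replicate 2) were led by Egfl7 at 0.09, Pecam1 at 0.18 and Emcn at 0.24. Macrophage markers (7 genes, 0 passed, 135.6 to 173.8 FPKM against 123.7 to 166.3 FPKM) were led by Cd14 at -0.37, C1qb at 0.18 and C1qa at 0.07. Neutrophil markers (5 genes, 3 tested, 0 passed, 22.38 to 52.31 FPKM against 25.52 to 40.36 FPKM) were led by S100a9 at 0.02, S100a8 at -0.19 and Retnlg at 0.43. In the distal nephron 1 gene was higher and 1 lower at an unadjusted p under 0.05, in the endothelial, macrophage and neutrophil lists 0 were, and the exact test and DESeq2 called 0 in all 4 lists. Without wild-type replicate 2 the injury genes Krt18 (FDR 0.0376) and Krt20 (FDR 0.0287) passed the quasi-likelihood test as higher, and the median of that list went from 0.13 to 0.30. Without the same mouse the median of the endothelial list turned from 0.20 to -0.14, that of the macrophage list from 0.11 to -0.13, and that of the distal nephron list from -0.13 to 0.22. Single markers turned too, such as Aqp2 from -0.54 to 0.29, Lcn2 from -0.08 to 0.26 and Pecam1 from 0.18 to -0.22.

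The liver expresses the same Cyp4a genes, so its markers were read too. Ahsg, Cps1 and Cyp7a1 were at 0 counts in every library. Of 9 genes 3 were tested and 0 passed, while 1, Alb, was lower at an unadjusted p under 0.05, in the exact test and with DESeq2. Ttr was at 19.18 to 38.14 FPKM, Apoa2 at 1.29 to 4.54 FPKM, and Alb at 1.70 to 2.23 FPKM in Ptpn6+/mev mice and 3.68 to 6.29 FPKM in wild-type mice (log2 fold change -1.49, FDR 0.0852, or FDR 0.0349 without wild-type replicate 2). Apart from Ttr, every gene of the list was thus at most at 6.29 FPKM in each library.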

How the data were processed

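Left kidney tissue of 3 Ptpn6+/mev and 3 wild-type mice was sequenced from poly-A RNA, and groups and replicate numbers were taken from the sample titles. Per the labels, the submitters' processing notes name Bowtie2, TopHat2, Cufflinks and RSEM with the build GRCm38.p5. For each gene and library the authors deposited FPKM beside an estimated count, the former scaled to transcript length and total fragments. Which tool made the counts is not given in the sources used here. The table's gene ontology and pathway annotations were not used. Fractional counts occurred in 1744 genes, and counts were rounded for the count tests. Totals were 10271590 to 12361745 counts, so counting error was small except for Cyp4a32. Nothing beyond separate mice is stated about the replicates, and SDs describe these mice.

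Counts were fitted with edgeR 4.0.16 (R 4.3.3; TMM, filterByExpr, quasi-likelihood test, Benjamini-Hochberg over 13036 genes, FDR threshold 0.05), and standard errors were taken from the log2 fold change and the F statistic. The scripts were tested on simulated data with 200 changed genes. Sequences and positions were read from GENCODE M21 (GRCm38), and the haem window was located by the P450 haem-binding signature in the longest open reading frame. The 14 alternatives used DESeq2 1.42.0 size factors, upper quartile factors, DESeq2's Wald test, edgeR's exact test, limma 3.58.1 on log2(FPKM + 1) or log2(FPKM + 0.1), no filter, a block for the replicate number, and each library left out in turn.

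The members and the 15 gene lists were chosen with earlier results of these data known. Genes were named by rule: all members, Ptpn6, list genes at an FDR under 0.05, the 3 most abundant genes of each list, and the 5 genes nearest to Cyp4a10, Cyp4a14 and Cyp4a12a. Other names, such as genes called only by another test, were chosen after their values were seen. Promoters and proteins of the members were not analysed here. Values of 2 list genes are not reported here, though they remain in the counts and medians of their lists.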

Additional observations from a re-analysis of the deposited data

How the results depend on the processing

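The log2 fold change of the family sum was between -2.08 and -1.10 over the 14 alternatives. Both ends of that range came from leaving out a library: the ranges over the 6 libraries left out in turn were -2.08 to -1.07 for Cyp4a10, -3.05 to -1.73 for Cyp4a14, -1.66 to -0.82 for Cyp4a31, -0.79 to -0.60 for Cyp4a12a and -0.50 to -0.16 for Cyp4a12b. No alternative turned the direction of the sum or of the 5 tested members, which were chosen for that direction. Where the groups did not overlap, leaving out 1 library could not turn it. The value of -0.82 for Cyp4a31, without wild-type replicate 2, was the only member value that moved by more than the spread between replicates. That spread, the pooled SD of log2 CPM, includes wild-type replicate 2. It was 0.522 for Cyp4a31, 0.707 for Cyp4a10 and 1.12 for Cyp4a14. Without that mouse Cyp4a14 (-2.57 to -1.73) and Cyp4a10 (-1.70 to -1.07) moved further in log2 units than Cyp4a31 (-1.37 to -0.82). The number of genes called depended on the setting. It was 18 in the quasi-likelihood test, 387 with DESeq2, 390 with the exact test, 52 with no filter, and 1 to 237 with a library left out (237 without wild-type replicate 2). Calls within the 15 lists numbered 2 and became 23 with DESeq2, 23 with the exact test, 1 with limma at either pseudocount, 4 with no filter and 0 to 20 with a library left out (20 without wild-type replicate 2, 8 without wild-type replicate 3, and 0 without Ptpn6+/mev replicate 1 or replicate 3). Without wild-type replicate 3 the calls were 2 downstream oxidation genes, 3 PPARα targets, 2 proximal tubule markers and 1 male-enriched gene. With the replicate number as a block, 1 gene and 0 list genes were called and the family sum was at -1.49. Deviations of mice with the same number correlated at -0.144, -0.184 and -0.130, which showed no pairing by number. With deviations taken from means of 3 mice, the check cannot exclude pairing. The causes of these shifts were not tested. Depth limited Cyp4a32 alone among the members, with 2.01 to 28.12 counts.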
